A study of Homo sapiens with 60 samples.

Results

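The common effect of a high dose of 6 herbal extracts was read in A549, a widely used cell line from a human lung carcinoma, by comparing RNA from cells given 500 µg/mL of an extract with RNA from cells given 20 µg/mL of the same extract for 24 h. The members were 33 of the 60 libraries of the series, chosen by extract and dose, with 1 library left out for its values: 17 at the high dose and 16 at the low dose. Yijin-tang and Soshiho-tang, which are mixtures of several herbs, were water extracts. The other 4 were ethanol extracts of a single herb: Liriopis seu Ophiopogonis Tuber (Liriopis from here on), Schisandrae Fructus (Schisandrae), Longan Arillus (Longan) and Zizyphi Semen (Zizyphi). Each dose had 3 libraries per extract, except that Soshiho-tang had 2 and that Longan low was used with 2, because its replicate 3 stood apart from the 33 libraries used. Water or ethanol, mixture or single herb, and the set number in the library names (8 for the mixtures, 9 for Liriopis and Schisandrae, 10 for Longan and Zizyphi) changed together between extracts and cannot be told apart, but each high dose was compared with the low dose of its own extract and set. The 3 vehicle libraries (0.1% DMSO per the labels) and the 100 µg/mL libraries of the same extracts entered no test and are given for reference. The vehicle libraries carry a set name of their own (C1), so a difference from vehicle and a difference between sets cannot be told apart. The labels state no DMSO share for the extract libraries. Whether replicates came from separate cultures is not stated, so the p-values reflect variation among libraries that could be purely technical.

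Total counts in the 33 libraries ran from 18002709 to 30366277, with a median of 24209246, and mitochondrial transcripts took 11.0 to 16.8% of the counts at the high dose and 12.1 to 16.4% at the low dose. The summed epithelial and lung carcinoma markers (10 genes, among them KRT8, KRT18 and EPCAM) reached 8318 to 8964 CPM (counts per 1000000 counts of the library) at the high dose and 8594 to 9084 CPM at the low dose. In 5 of 6 extracts every high-dose library lay below every low-dose library in this sum, and in 1 extract every one lay above. The vehicle libraries reached 9323 to 9595 CPM. The 8 markers tested singly did not fall as a group: 1 was called lower and 0 higher in the common test, with a median log2 fold change of 0.02. The part of this sum in the results was not tested. The lung lineage markers NAPSA, NKX2-1 and SFTPB stood under 1 CPM. Summed leukocyte markers reached 14.9 to 22.9 CPM at the high dose and 14.2 to 24.6 CPM at the low dose, with the T and B cell markers CD3D, CD3E and MS4A1 at 0. In bulk RNA, fewer cells of a kind and less RNA per cell cannot be told apart.

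The aryl hydrocarbon receptor (AHR) is a ligand-activated transcription factor that, with its partner ARNT, binds the letters GCGTG, the core of the xenobiotic response element, and switches on the cytochrome P450 genes CYP1A1 and CYP1B1 together with TIPARP and AHRR, whose products shut the receptor down again. The NR4A receptors (NR4A1, NR4A2 and NR4A3) are orphan nuclear receptors and immediate early genes, induced within minutes by cAMP, calcium and growth factor signals, in part through cAMP response elements with the core letters TGACG. BMP6 is a secreted ligand of the bone morphogenetic protein (BMP) pathway, GREM1 is a secreted antagonist of it, and the ID genes are its classical targets.

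Promoter sequences are shown for members of the AHR and NR4A groups, because 4 members of the former and 3 of the latter were called in the common test. They come from RefSeq (GRCh38.p14), are written 5′ to 3′ in the direction of the gene, and carry in capitals each match to GCGTG (AHR targets) or TGACG (NR4A3) on either strand, so that CACGC and CGTCA are matches on the opposite strand. Of the 35116 windows of 250 bases before a start in that table, 32.2% held GCGTG at least once and 21.2% held TGACG. Matches that overlap on the 2 strands were counted separately. For CYP1A1 and TIPARP only 25 bases around each match are shown. Of the 3 windows listed for TIPARP, the other 2 held 0 matches.
CYP1A1, chr15:74725571-74725595, minus strand, match 57 bases before the start: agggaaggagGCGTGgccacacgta
TIPARP, chr3:156674372-156674396, plus strand, match 208 bases before the first listed start: cgagaaaggaCACGCcccctcgcgg
TIPARP, chr3:156674438-156674462, plus strand, match 142 bases before the first listed start: aacgaacgcgCACGCgcgcgcaggg
AHRR, chr5:321464-321713, plus strand: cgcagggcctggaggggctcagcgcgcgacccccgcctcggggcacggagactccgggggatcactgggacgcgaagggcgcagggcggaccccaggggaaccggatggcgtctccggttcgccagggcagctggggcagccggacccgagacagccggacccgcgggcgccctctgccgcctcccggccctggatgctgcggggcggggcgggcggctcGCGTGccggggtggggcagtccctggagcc
NR4A3, chr9:99821635-99821854, plus strand: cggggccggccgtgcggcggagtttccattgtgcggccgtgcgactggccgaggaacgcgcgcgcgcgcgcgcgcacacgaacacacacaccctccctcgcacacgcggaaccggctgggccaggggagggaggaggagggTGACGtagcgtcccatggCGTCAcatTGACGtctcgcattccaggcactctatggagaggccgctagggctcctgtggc
The AHRR window shown held 1 match, 30 bases before its first listed start. The second window listed for AHRR held 2 matches, 247 and 42 bases before its start. No sequence is shown for CYP1B1 or NR4A2. The full 250-base window of NR4A3 held 4 matches to TGACG, at 109, 91, 83 and 25 bases before the start, of which the first 3 are in the stretch shown. A count of 3 or more was found in 1.01% of all windows. Both listed NR4A1 windows held none. A match is a string of letters and no measured binding site.

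Across the 6 extracts the high dose changed 551 of 17368 tested genes relative to the low dose (3.17% of genes tested; edgeR quasi-likelihood test with extract as a block, Benjamini-Hochberg adjusted p under 0.05). Without adjustment 2772 genes (16%) had a p under 0.05. Of the called genes, 281 rose (1.62%) and 270 fell (1.55%). The median log2 fold change was 0.13 among the genes that rose and -0.12 among those that fell. The sign of the change was the same in at least 5 of the 6 extracts for 519 of the called genes (2.99% of those tested; 265 or 1.53% higher and 254 or 1.46% lower), and in 6 of 6 for 277 (1.59%). Since the call uses the same libraries, this is a description: among all tested genes, whether called or not, 27.6% kept the common sign in at least 5 extracts and 5.17% in 6. The test takes libraries as its units, so a call says that the average over these libraries moved. With the extract as the unit (limma on 6 differences) 9 genes were called and 1508 had an unadjusted p under 0.05. The count fell to 192 without Yijin-tang, 215 without Zizyphi, 295 without Schisandrae and 341 without Soshiho-tang, rose to 893 without Liriopis, and was 64 with Longan low replicate 3 added.

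**Figure D1:**
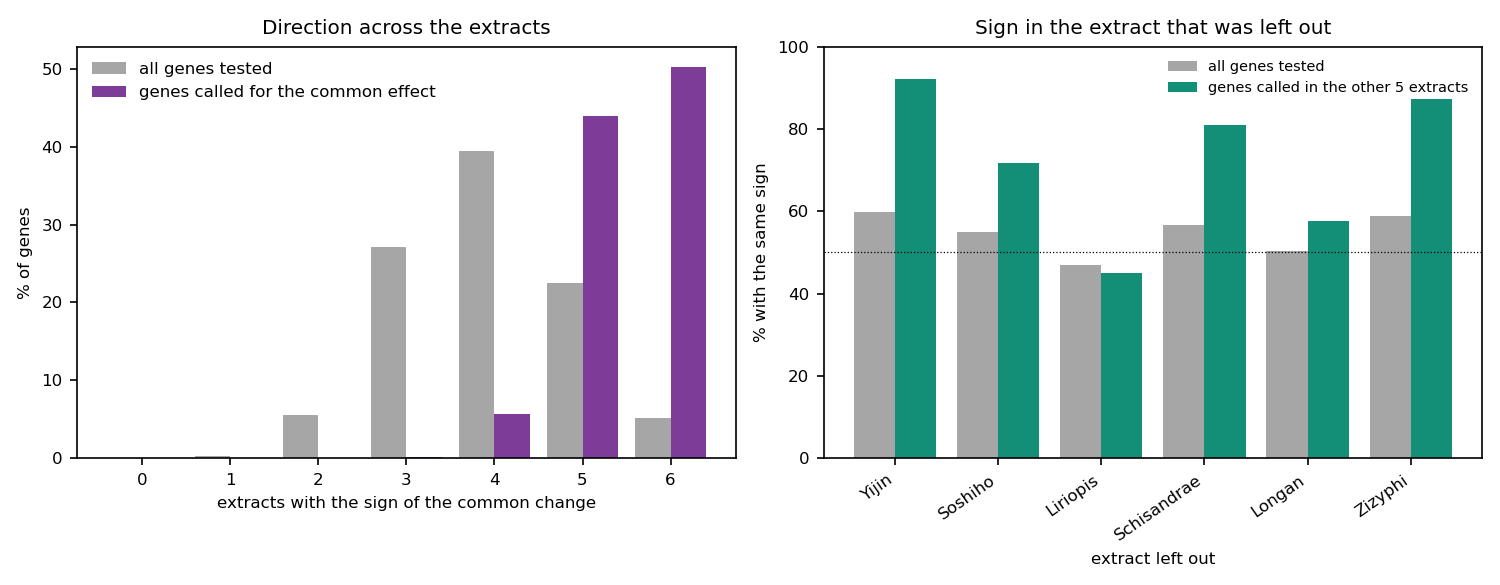
Left, percent of genes by the number of extracts (of 6) in which the high against low change had the sign of the common change, for all 17368 genes tested (grey) and the 551 called genes (purple). Right, for each extract left out, percent of genes with the same sign in that extract as in the fit of the other 5, for all genes (grey) and for the genes called in those 5 (green), with a dotted line at 50%. Yijin-tang and Zizyphi stand highest, and in Liriopis the called genes are not above the grey bar. The green bars rest on different genes (192 for Yijin-tang, 893 for Liriopis) and do not rank the extracts.

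Leaving an extract out and reading its own change for the genes called in the other 5 gives a comparison in libraries that the calls did not use. The called genes differ with the extract left out, so the shares do not rank the extracts. For Yijin-tang, 92.2% of 192 such genes had the sign of the other 5 extracts, against 59.9% of all genes. For Zizyphi the share was 87.4% of 215 genes (58.8% of all genes), and for Schisandrae 81.0% of 295 (56.7%). Soshiho-tang shared the sign for 71.8% of 341 genes (54.9% of all), with an uneven split: 118 of 142 higher genes but 127 of 199 lower genes had the same sign. Longan came to 57.7% of 685 genes (50.4%). Liriopis came to 44.9% of 893 genes against 47.0% of all genes, so the genes called in the other extracts did not move alike in Liriopis by sign. In Liriopis alone 0 genes were called by edgeR, and 936 (5.39%) had an unadjusted p under 0.05. Soshiho-tang gave 1745 called genes (10% of those tested), 959 higher (5.52%) and 786 lower (4.53%). Schisandrae gave 270 (1.55%), 161 higher (0.927%) and 109 lower (0.628%), and Zizyphi 220 (1.27%), 92 higher (0.53%) and 128 lower (0.737%). Yijin-tang gave 184 (1.06%), 86 higher (0.495%) and 98 lower (0.564%), and Longan 16 (0.0921%), 2 higher (0.0115%) and 14 lower (0.0806%). Leaving out single libraries moved these counts to 828 to 1147 in Soshiho-tang, 127 to 290 in Schisandrae, 103 to 143 in Zizyphi, 114 to 140 in Yijin-tang and 0 to 74 in Longan.

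Of 6 AHR targets tested, 4 rose in the common test (CYP1A1, CYP1B1, TIPARP and AHRR) and 0 fell, and the list's median log2 fold change was 0.33, against -0.00019 over all genes. Its median was positive in each extract, from 0.22 in Zizyphi and Liriopis to 0.55 in Yijin-tang, which was also the case for the lists of NF-kB and iron handling genes among 45 lists. Over all genes 1.62% rose. With the extract as the unit 0 of the 6 members were called (limma). The members that did not pass were NQO1 (log2 fold change 0.04 ± 0.021 SE), a quinone reductase, and ALDH3A1 (0.03 ± 0.032), an aldehyde dehydrogenase. NQO1 rose in Schisandrae alone among single extracts (0.19, adjusted p = 0.00108) and ALDH3A1 fell in Zizyphi (-0.23, adjusted p = 0.0178).

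CYP1B1, which oxidises steroid hormones and aromatic hydrocarbons (ENSG00000138061, chromosome 2, 38066973 to 38109902), was the only gene called in the same direction in at least 5 of 6 single extracts (0.00576% of those tested). It stood at 90.6 to 201.2 CPM (median 114) in the high-dose libraries, 74.0 to 155 CPM (median 91.4) in the low-dose libraries and 92.6 to 95.8 CPM in the vehicle libraries. In Yijin-tang it read 165, 178 and 174 CPM at the high dose and 98.6, 99.6 and 105 CPM at the low dose. In every extract all high-dose libraries lay above all low-dose libraries of the same extract, although the groups overlapped between extracts. The low-dose libraries of Soshiho-tang, at 147.8 and 154.9 CPM, lay above the high-dose libraries of Liriopis (108 to 110 CPM). The 100 µg/mL libraries of Soshiho-tang read 125 and 106 CPM, below its low dose, whereas in the other 5 extracts the mean at 100 µg/mL lay between those at the low and the high dose. The common log2 fold change was 0.42 ± 0.045 (SE; edgeR, adjusted p = 1.57e-06). Single extracts ranged from 0.25 ± 0.064 in Zizyphi and 0.26 ± 0.063 in Liriopis, the latter not called, to 0.77 ± 0.062 in Yijin-tang. The p-values were adjusted within each extract, so Zizyphi (adjusted p = 0.0497) and Liriopis (0.564) differed in call at near-equal changes. The interaction test called the spread over the extracts (adjusted p = 0.00119).

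TIPARP, a mono-ADP-ribosyltransferase that represses AHR (chromosome 3, 156673235 to 156706770), moved in the same direction in each extract. It reached 37.0 to 71.8 CPM at the high dose (median 49.2), 30.9 to 55.5 CPM at the low dose (median 37.9) and 37.4 to 39.7 CPM in vehicle. All high-dose libraries lay above the low-dose libraries of their extract in 6 of 6 extracts. The common log2 fold change was 0.41 ± 0.045 (adjusted p = 1.86e-06), and it rose in Yijin-tang (0.74), Schisandrae (0.44) and Soshiho-tang (0.42) taken singly. Values for Longan, Zizyphi and Liriopis were 0.34, 0.23 and 0.23. The interaction test called a difference between extracts for TIPARP too (adjusted p = 0.0117).

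CYP1A1 (chromosome 15, 74719542 to 74725610) had the largest change of the genes named as alike, from a low level. It read 0.977 to 5.06 CPM at the high dose (median 1.77), 0.779 to 3.16 CPM at the low dose (median 1.12) and 0.977 to 1.48 CPM in vehicle. In Yijin-tang the high-dose libraries read 3.18, 3.95 and 3.81 CPM and the low-dose libraries 1.40, 1.18 and 1.44 CPM. In 5 extracts all high-dose libraries lay above the low-dose ones. In Zizyphi they overlapped, with 1.51, 1.59 and 0.977 CPM at the high dose and 1.40, 0.779 and 0.992 CPM at the low dose. The common log2 fold change was 0.77 ± 0.10 (adjusted p = 2.43e-06), with 1.45 ± 0.19 in Yijin-tang and 0.79 ± 0.20 in Schisandrae called singly. AHRR, the AHR repressor, rose by less, with a log2 fold change of 0.26 ± 0.046 (adjusted p = 0.000535), and all 6 extracts lay between 0.20 and 0.37.

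**Figure D2:**
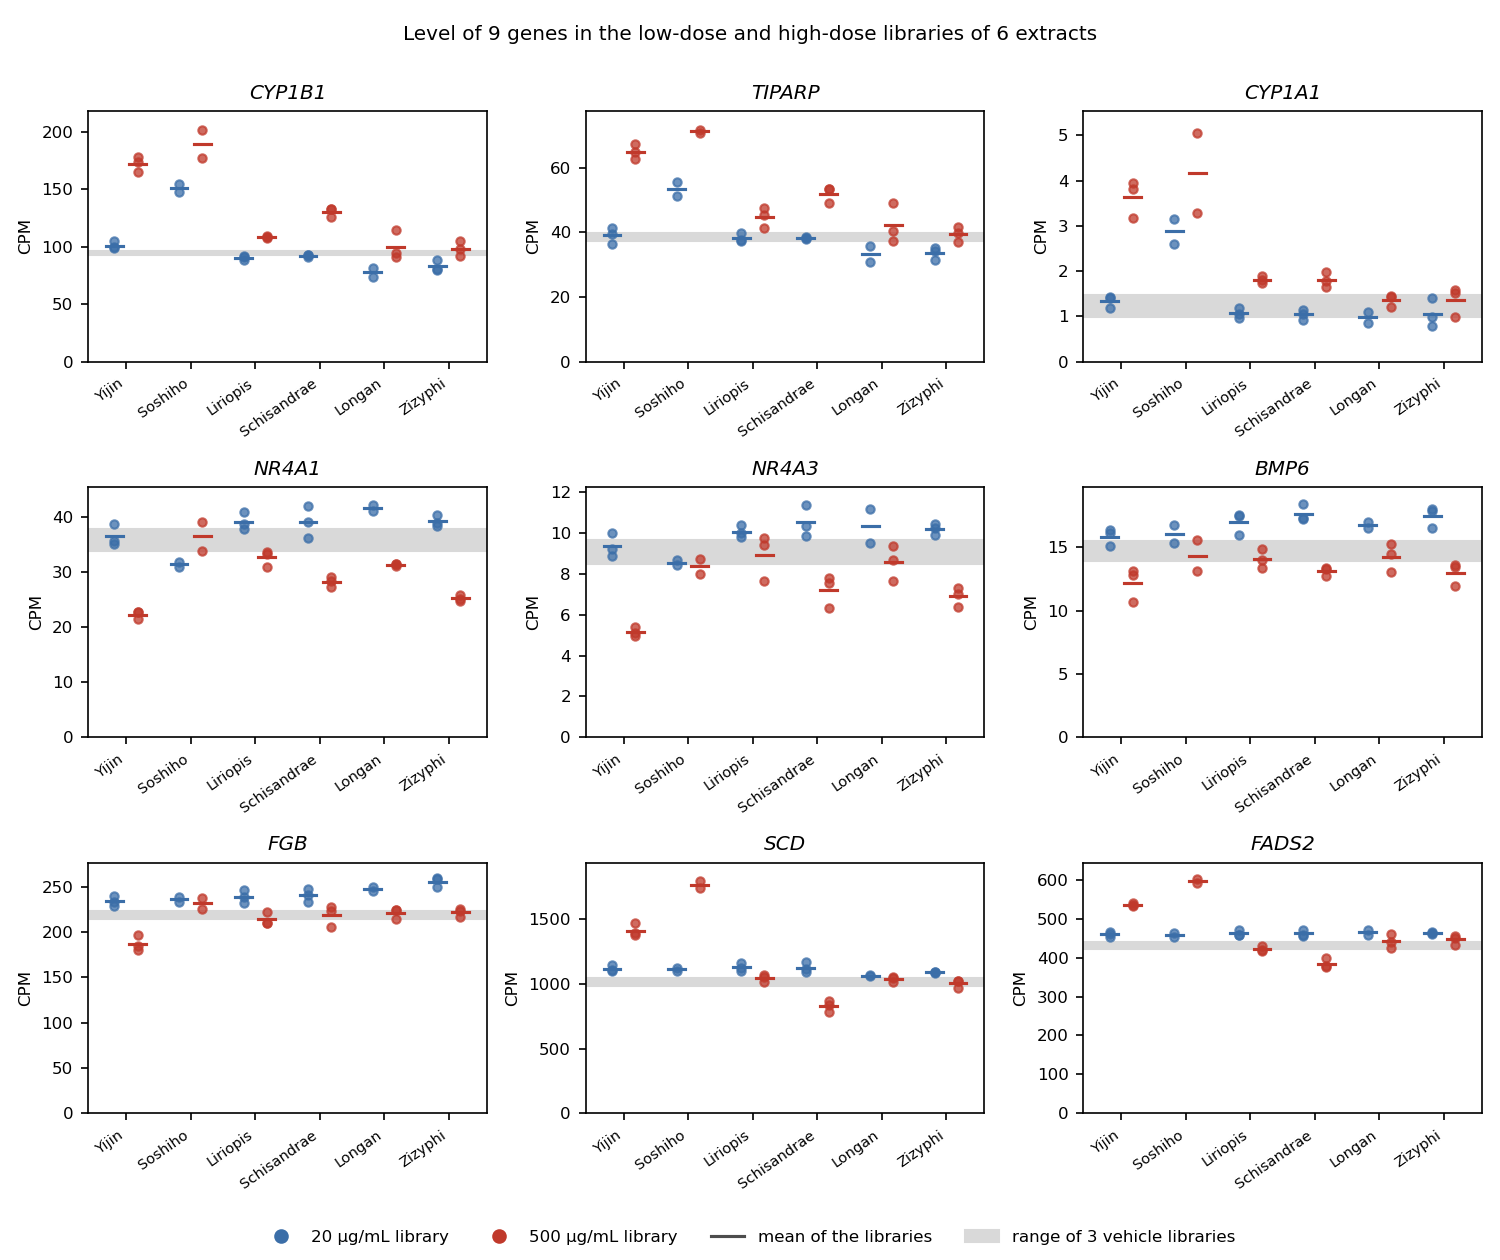
Level in CPM (vertical axis, from 0) of 9 genes in each 20 µg/mL library (blue) and 500 µg/mL library (red) of the 6 extracts, with bars at the mean and a grey band for the range of the 3 vehicle libraries. CYP1B1 and TIPARP stand higher at the high dose in every extract, NR4A1 lower in every extract but Soshiho-tang, and SCD moves up in both mixtures and down in Schisandrae.

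Beyond the AHR targets, the alike genes with the largest rise covered chemokines, secreted factors and epithelial differentiation genes. CXCL2, a neutrophil chemokine, had a common log2 fold change of 0.46 ± 0.11 (adjusted p = 0.0135), and CCL2, a monocyte chemokine, 0.39 ± 0.080 (adjusted p = 0.00348). Both were uneven: CXCL2 rose by 1.07 in Yijin-tang and 1.32 in Soshiho-tang and read -0.14 to 0.19 in the others, and CCL2 was called in Yijin-tang (0.89) and Zizyphi (0.62) and read -0.07 in Schisandrae. GREM1 rose by 0.39 ± 0.063 (adjusted p = 0.000188), from 4.11 to 7.34 CPM at the low dose (median 5.65) to 4.79 to 12.3 CPM at the high dose (median 7.47). The groups overlapped over all libraries but separated within 5 of the 6 extracts. CCN4, a matricellular WNT target, rose by 0.42 ± 0.091, most in Zizyphi (0.95). GRHL3, a transcription factor of epidermal differentiation, rose by 0.31 ± 0.058 (adjusted p = 0.000828) with all extracts between 0.11 and 0.39 and no single extract called. PADI1, a peptidylarginine deiminase, rose by 0.31 ± 0.078 (adjusted p = 0.0190), from 0.18 in Zizyphi to 0.45 in Soshiho-tang, again with no single extract called. LBP, which binds bacterial lipopolysaccharide, rose by 0.36 and LOXL4, a lysyl oxidase, by 0.33, also without a call in any single extract. TRIM31 (0.38), TTC39A (0.30), BEGAIN (0.30) and HRNR (0.30) completed the list at 1 to 3 CPM. Their calls were lost on leaving out single libraries in many cases, and were kept in 13, 27, 15 and 11 of 33 such fits, respectively. PADI1 kept its call in 32.

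Of 20 NF-kB and chemokine genes, 11 rose in the common test (1.62% of all genes rose), 0 fell, and the median log2 fold change was 0.21. With the extract as the unit 0 of the 20 were called (limma). The extracts were uneven. Over all genes Yijin-tang called 0.495% higher, Soshiho-tang 5.52% and Zizyphi 0.53%. Yijin-tang called 13 of 20 higher (median 0.64) and Soshiho-tang 16 (median 0.55), Zizyphi called 6 (median 0.18), and the medians in Liriopis, Schisandrae and Longan were 0.02, 0.01 and 0.02. CXCL1 read 5.28, 4.63 and 5.03 CPM in Yijin-tang high against 1.26, 1.47 and 1.35 CPM in Yijin-tang low, and 5.24 and 5.01 CPM against 1.09 and 0.948 CPM in Soshiho-tang. In the other 4 extracts the high-dose libraries (0.827 to 1.76 CPM) overlapped the low-dose ones (0.996 to 1.46 CPM). Its common log2 fold change was 0.76 ± 0.20 (adjusted p = 0.0367), with the sign in 4 of 6 extracts, and the interaction was called (adjusted p = 1.64e-08). IL32, a proinflammatory cytokine, rose by 0.36 ± 0.10 on average but read -0.34 in Schisandrae. CXCL1 and IL32 kept their common calls in 22 and 12 of 33 fits that left out a library. Members with a common call and no interaction call included IER3 (0.15, adjusted p = 0.000190), a stress-induced survival gene, and NFKB1 (0.09, adjusted p = 0.0142), which encodes the p50 precursor. A missing interaction call does not show an even change, and IER3 ran from 0.02 in Longan to 0.22 in Soshiho-tang. Without Soshiho-tang the list had 4 members higher, and without Yijin-tang 3.

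SQSTM1, TNFAIP2 and VAT1 were called higher in 4 extracts, namely Yijin-tang, Soshiho-tang, Schisandrae and Zizyphi, and in each of those 4 the high-dose libraries lay above the low-dose ones. Together with CYP1B1 and NR4A1 they were the only 5 genes called in 1 direction in at least 4 of 6 extracts (0.0288% of those tested), and 58 genes were called in at least 3 (0.334%), 30 higher (0.173%) and 28 lower (0.161%). SQSTM1, the autophagy receptor p62, read 698 to 894 CPM at the high dose (median 765) and 698 to 751 CPM at the low dose (median 713). Its common log2 fold change was 0.14 ± 0.025 (adjusted p = 0.000471), with -0.04 in Liriopis and 0.01 in Longan. TNFAIP2, a TNF-induced gene, changed by 0.13 ± 0.023 and VAT1, a vesicle membrane protein, by 0.11 ± 0.018, again near 0 in Liriopis (-0.02 and 0.00). HMOX1, the haem-degrading oxygenase, rose in Soshiho-tang (0.88), Schisandrae (0.30) and Yijin-tang (0.28). It read 149 to 274 CPM at the high dose (median 172) against 139 to 158 CPM at the low dose (median 148.1), and the high-dose libraries of every extract but Liriopis lay above the low-dose ones. In Liriopis it read 149, 154 and 157 CPM at the high dose and 154, 155 and 149 CPM at the low dose. ALDH1A3, which makes retinoic acid, rose by 0.20 ± 0.030 and was called in Yijin-tang, Schisandrae and Zizyphi.

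The iron handling list had 4 of 9 members higher (HMOX1, FBXL5, FTH1 and STEAP3), 0 lower and a median of 0.06. Over all genes 1.62% rose, and with the extract as the unit 0 of the 9 were called (limma). FTH1, the ferritin heavy chain, rose by 0.10 ± 0.020 and FBXL5, the iron-sensing ubiquitin ligase subunit, by 0.12 ± 0.027. STEAP3, a ferrireductase, rose by 0.06 ± 0.016 with the sign in 6 of 6 extracts. Without Yijin-tang 1 member was called. The larger list of NRF2 targets had 2 of 28 members higher, which were HMOX1 and FTH1 again, and a median of 0.01. The extracts differed, with an interaction call for 15 of the 28 (5.84% of all genes). Schisandrae called 7 higher and 0 lower (median 0.08), against 0.927% and 0.628% of all genes. Soshiho-tang called 7 higher and 4 lower (5.52% and 4.53% of all genes). Yijin-tang called 2 higher, Zizyphi 1 lower, and Liriopis and Longan 0.

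All 3 NR4A receptors fell in the common test. NR4A1 (chromosome 12, 52022832 to 52059507) read 21.4 to 39.1 CPM at the high dose (median 29.1), 31.0 to 42.2 CPM at the low dose (median 38.7) and 33.8 to 37.7 CPM in vehicle. In Yijin-tang it read 22.7, 22.7 and 21.4 CPM at the high dose and 35.1, 38.7 and 35.6 CPM at the low dose. The mean at 100 µg/mL lay between the low-dose and high-dose means in each extract, for example 34.6 ± 1.34 CPM (SD, n = 3) in Liriopis and 32.7 ± 0.670 CPM in Zizyphi. It fell in Yijin-tang (-0.71 ± 0.056), Zizyphi (-0.64 ± 0.055), Schisandrae (-0.47 ± 0.053) and Longan (-0.41 ± 0.058), was not called in Liriopis (-0.25 ± 0.053) and rose in Soshiho-tang (0.22 ± 0.066). The Soshiho-tang libraries read 39.1 and 33.9 CPM at the high dose and 31.7 and 31.0 CPM at the low dose. NR4A1 was thus both among the genes lower in most extracts (common log2 fold change -0.41 ± 0.058, adjusted p = 8.10e-05) and among those with opposite calls (interaction, adjusted p = 7.39e-09).

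NR4A3 (chromosome 9, 99821855 to 99866891), whose promoter sequence carries 3 matches in the stretch printed, read 4.94 to 9.74 CPM at the high dose (median 7.64) and 8.41 to 11.3 CPM at the low dose (median 9.93). It fell in Yijin-tang (-0.86 ± 0.10), Zizyphi (-0.56 ± 0.095) and Schisandrae (-0.54 ± 0.090), with a common log2 fold change of -0.42 ± 0.059 (adjusted p = 2.06e-05). In Soshiho-tang it read 7.99 and 8.72 CPM at the high dose and 8.68 and 8.41 CPM at the low dose, which overlap. NR4A2 fell by 0.40 ± 0.064 on the log2 scale (adjusted p = 0.000119) and was called singly in Yijin-tang (-0.66), with 0.06 in Soshiho-tang. The rest of the immediate early list did not follow. FOSL1 (0.15) and JUN (0.22), which form AP-1, rose in the common test, so that 2 of 21 members were higher and 3 lower, and FOS (-0.17, adjusted p = 0.124) and EGR1 (0.32, adjusted p = 0.161) did not pass. In Soshiho-tang 11 of 21 members rose and 0 fell, where 5.52% of all genes rose. In the common test 1.62% of all genes rose and 1.55% fell. With the extract as the unit 0 of the 21 were called (limma).

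BMP6 (chromosome 6, 7726797 to 7881422) had the smallest p of all genes in the common test. It read 10.7 to 15.6 CPM at the high dose (median 13.3), 15.1 to 18.4 CPM at the low dose (median 16.9) and 13.9 to 15.5 CPM in vehicle. Over all 33 libraries the doses overlapped only at their edge, and within 5 extracts every high-dose library lay below every low-dose one. In Soshiho-tang the high-dose libraries read 13.1 and 15.6 CPM and the low-dose libraries 16.7 and 15.4 CPM. The common log2 fold change was -0.33 ± 0.035 (adjusted p = 1.66e-07), single extracts ran from -0.43 in Schisandrae to -0.16 in Soshiho-tang, and the interaction was not called (adjusted p = 0.426). It was also called with the extract as the unit (limma, adjusted p = 0.0249), as were CRYAB, LINC02593, MUC16, PRICKLE2 and SLC45A4 among the named genes. The vehicle libraries lay inside the range of the high-dose libraries, and the low-dose median lay above all of them.

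Of 19 genes on the list of BMP, SMAD and ID genes, 5 fell (BMP6, ID4, ID2, ID3 and the decoy receptor BAMBI). Another 2 rose, among them GREM1, and the median log2 fold change was -0.12. Over all genes 1.55% fell and 1.62% rose. With the extract as the unit 1 of the 19 was lower (limma). The ID genes encode inhibitors of basic helix-loop-helix factors. ID4 fell in Yijin-tang (-0.87) and Soshiho-tang (-0.70) and read 0.02 in Liriopis and -0.04 in Longan. ID2 fell in Soshiho-tang (-0.58), Yijin-tang (-0.49) and Zizyphi (-0.19), and ID3 in Yijin-tang (-0.47), and the interaction was called for all 3 genes. The common calls of ID2 and ID3 were kept in 29 and 8 of 33 fits that left out a library. Without Yijin-tang 1 of the list's members was lower.

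All 3 fibrinogen chains fell. FGB, FGA and FGG lie side by side on chromosome 4, between 154562956 and 154612967, and encode the chains of the clotting protein fibrinogen, which A549 cells make. FGB read 180 to 237 CPM at the high dose (median 222) and 229 to 259 CPM at the low dose (median 240), FGA 154 to 200.6 against 188 to 214 CPM, and FGG 108 to 140 against 130 to 153 CPM. The common log2 fold changes were -0.18 ± 0.021 for FGB (adjusted p = 9.66e-07), -0.17 ± 0.022 for FGA (1.86e-06) and -0.17 ± 0.023 for FGG (8.71e-06). In 5 of 6 extracts the high-dose libraries of each chain lay below the low-dose ones. The exception for FGB and FGG was Soshiho-tang, where FGB read 226 and 237 CPM at the high dose and 234 and 239 CPM at the low dose, while FGA fell there (-0.26). The exception for FGA was Schisandrae, at 182 to 200.6 CPM against 198 to 210 CPM. The interaction was called for each chain. On the list of complement and acute phase genes they and CD55, a complement inhibitor (-0.09), were the 4 of 16 lower members. The list's median was -0.01, and CD55 kept its call in 18 of 33 fits that left out a library. Over all genes 1.55% fell, and with the extract as the unit 0 of the 16 were called (limma).

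Among the other alike genes with the largest fall were CRYAB, a small heat shock protein (-0.41 ± 0.061, adjusted p = 4.35e-05, all extracts between -0.58 and -0.14), and LINC02593, a long noncoding RNA (-0.35 ± 0.051). RNF43, a membrane ubiquitin ligase that removes WNT receptors, changed by -0.34 ± 0.066 and was called in Soshiho-tang (-0.77) and Zizyphi (-0.70). DKK1, a secreted WNT antagonist, changed by -0.13, and 2 of 7 tested members of the WNT feedback list fell (1.55% of all genes fell). C5AR1, the complement C5a receptor, changed by -0.35 ± 0.070 and HPD, a tyrosine catabolic enzyme, by -0.34 ± 0.069. MUC16, a membrane mucin (-0.49 ± 0.13), kept its call in 17 of 33 fits that left out a library. RASA4B (-0.53), which has near-identical copies, HCG25 (-0.53) and FMNL1-AS1 (-0.30), which may overlap other genes, are uncertain, and kept their calls in 15, 20 and 32 of 33 such fits. MIR194-2HG, a miRNA host transcript, changed by -0.28. H19, an imprinted noncoding RNA, fell in Yijin-tang (-0.55), Longan (-0.41) and Soshiho-tang (-0.28). DIO2, which activates thyroid hormone, SLC2A3, a glucose transporter, PRICKLE2, a planar polarity protein, and SLC45A4, a solute carrier, were each called lower in 3 extracts, with common changes of -0.23, -0.20, -0.24 and -0.23.

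A stricter view asks for groups that do not overlap within any extract. In 6 of 6 extracts all high-dose libraries lay above all low-dose libraries for 4 genes (0.023% of those tested) and below for 6 (0.0345%). Those above included CYP1B1, TIPARP and STK32B, a kinase (0.18 ± 0.022). Those below were CPS1, the first enzyme of the urea cycle (-0.17), GRAMD1B, a sterol transfer protein (-0.15), CPLX2, a complexin (-0.19), CD24, a surface glycoprotein (-0.16), TSC22D1 (-0.10) and GJA1, connexin 43 (-0.07). In at least 5 of 6 extracts, 25 genes (0.144%) were separated upward and 35 (0.202%) downward. The genes named here were chosen for their separation, which is a description.

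**Figure D3:**
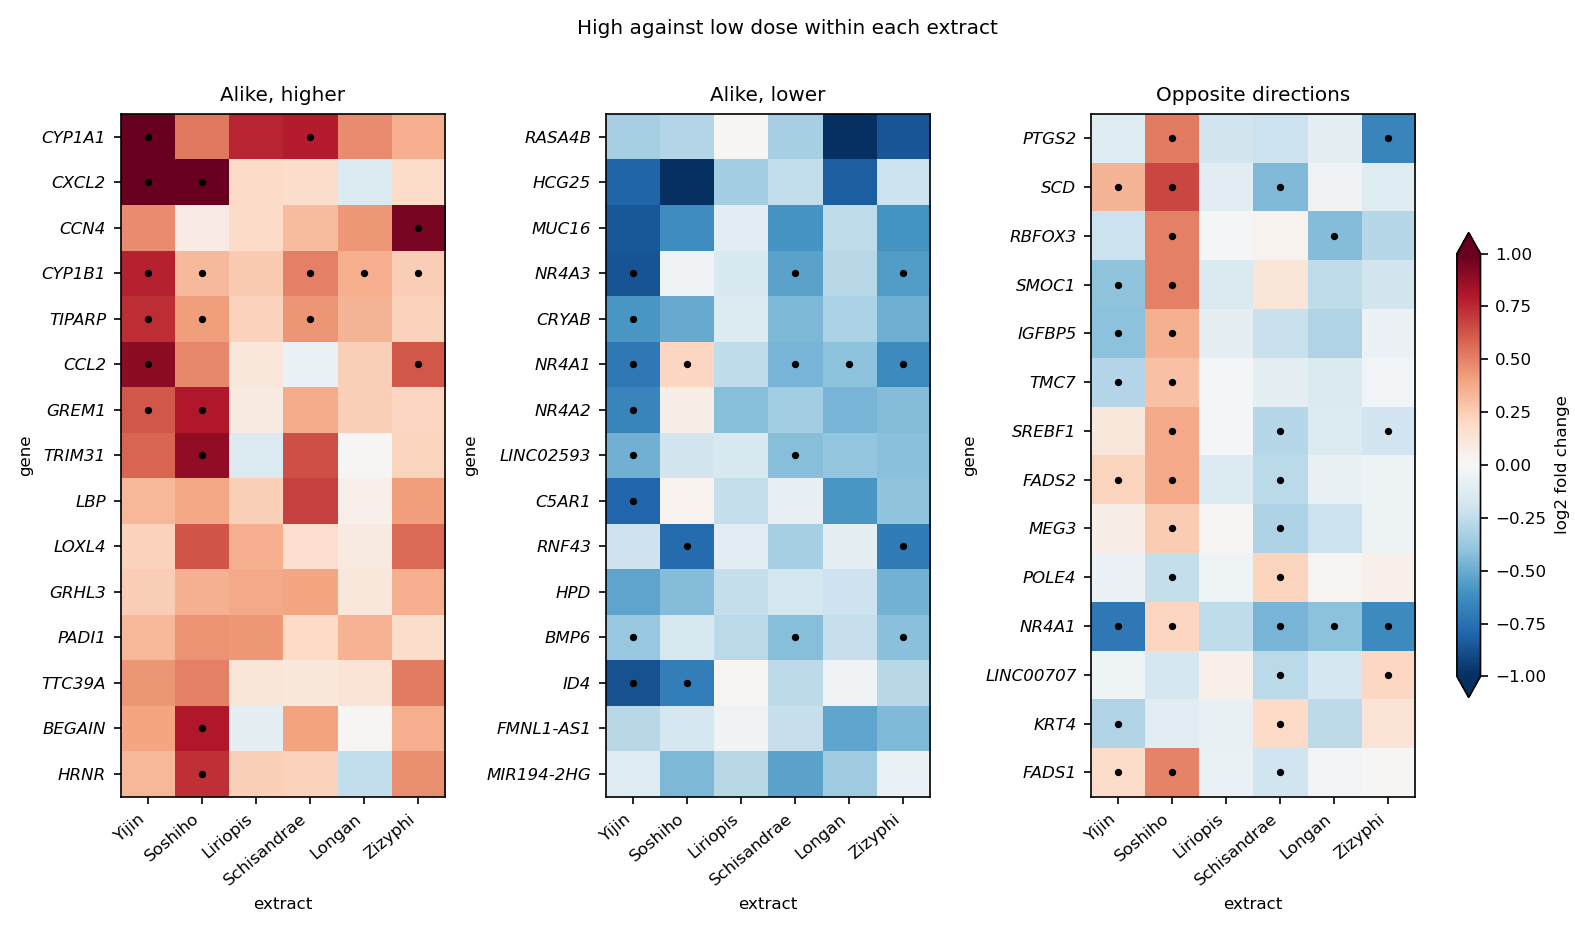
High against low log2 fold change (colour, blue lower and red higher, limited at -1 and 1) in each of the 6 extracts for 15 genes alike and higher, 15 alike and lower, and 14 with calls in opposite directions, with a dot where the extract's own test was called. The Liriopis column has no dot, and in the right panel the Soshiho-tang column is red for 11 of 14 genes.

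The extracts also differed. The interaction of extract and dose was called for 1015 genes (5.84%), of which 147 (0.846%) also had a common call. Without adjustment 3342 (19.2%) had a p under 0.05. Without Soshiho-tang the interaction count was 189, and leaving out 1 of its replicate 2 libraries brought it to 644 (high) or 630 (low). Calls in opposite directions in single extracts were made for 39 genes (0.225%), and of these 36 were called in Soshiho-tang (0.207%), 31 higher (0.178%) and 5 lower (0.0288%), and 4 had a common call (0.023%). The pairing was Soshiho-tang higher and Schisandrae lower for 18 genes (0.104%), Soshiho-tang higher and Zizyphi lower for 10 (0.0576%), and the reverse of the latter for 4 (0.023%). Calls shared with Soshiho-tang were still more often alike: 84 genes alike and 19 opposite with Schisandrae, 62 and 14 with Zizyphi, and 92 and 9 with Yijin-tang. Schisandrae and Zizyphi were called in the same direction for 42 genes and in opposite directions for 4, and Yijin-tang and Zizyphi for 35 and 0. The genes called alike were 28.2% (Soshiho-tang), 19.1% (Schisandrae) and 15.9% (Yijin-tang) of the 220 called in Zizyphi. Of all genes tested, those extracts called 10%, 1.55% and 1.06% in either direction.

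The opposite group held genes of lipid synthesis, among them SCD, which had the smallest interaction p of the group. SCD, the stearoyl-CoA desaturase (chromosome 10, 100347124 to 100364834), read 1793 and 1742 CPM in Soshiho-tang high against 1126 and 1096 CPM in Soshiho-tang low, and 1390, 1469 and 1378 against 1107, 1149 and 1096 CPM in Yijin-tang. In Schisandrae it read 870, 784 and 838 CPM at the high dose and 1169, 1091 and 1116 CPM at the low dose. The groups separated upward in both mixtures and downward in the other 4 extracts, of which only Schisandrae was called. The log2 fold changes were 0.67 ± 0.041 in Soshiho-tang, 0.34 ± 0.034 in Yijin-tang and -0.44 ± 0.034 in Schisandrae, and the interaction had an adjusted p of 1.34e-16. FADS2 and FADS1, the fatty acid desaturases that neighbour each other on chromosome 11, followed the same order: FADS2 changed by 0.38, 0.22 and -0.27 and FADS1 by 0.49, 0.19 and -0.20 in Soshiho-tang, Yijin-tang and Schisandrae. SREBF1, the transcription factor that drives these genes, rose in Soshiho-tang (0.38) and fell in Schisandrae (-0.29) and Zizyphi (-0.19). Of the 14 genes for fatty acid synthesis and desaturation, Soshiho-tang called 8 higher and Schisandrae 6 lower. Over all genes Soshiho-tang called 5.52% higher and Schisandrae 0.628% lower.

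The cholesterol list differed in part. Of 25 members, 4 rose in the common test (MVK 0.18, CYP51A1 0.12 and SQLE 0.11, which are enzymes of the pathway, and SREBF2 0.08, its regulator) and 0 fell, with a median of 0.09. In the common test 1.62% of all genes rose. Soshiho-tang called 19 higher, Yijin-tang 12 and Zizyphi 5, while Schisandrae called 3 lower. The shares of all genes were 5.52%, 0.495% and 0.53% higher, and 0.628% lower in Schisandrae. Without Soshiho-tang, without Yijin-tang or with the extract as the unit (limma) 0 members of the list had a common call. The interaction was called for 18 of the 25 members. SREBF2 kept its common call in 18 of 33 fits that left out a library, and MVK, CYP51A1 and SQLE in all 33.

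The other opposite genes described here lay outside lipid synthesis, and PTGS2 ranked first by the smaller of the largest rise and the largest fall. PTGS2, the inducible prostaglandin synthase, rose in Soshiho-tang (46.0 and 49.2 CPM against 32.6 and 33.8 CPM, 0.52 ± 0.10) and fell in Zizyphi (20.7, 17.9 and 16.99 CPM against 33.2, 27.3 and 27.5 CPM, -0.66 ± 0.092). SMOC1, a matricellular BMP antagonist, rose in Soshiho-tang (0.50) and fell in Yijin-tang (-0.40), so that the mixtures moved apart. IGFBP5, an insulin-like growth factor binding protein (0.35 and -0.41), and TMC7, a transmembrane channel-like protein (0.29 and -0.29), had the same pair of calls. RBFOX3, a neuronal splicing factor, rose in Soshiho-tang (0.50) and fell in Longan (-0.43), and MEG3, an imprinted noncoding RNA, rose in Soshiho-tang (0.25) and fell in Schisandrae (-0.31). POLE4, a DNA polymerase epsilon subunit, fell in Soshiho-tang (-0.24) and rose in Schisandrae (0.22). Without Soshiho-tang were the pairs of KRT4, a keratin (Yijin-tang -0.30, Schisandrae 0.20), and LINC00707 (Schisandrae -0.27, Zizyphi 0.21).

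**Figure D4:**
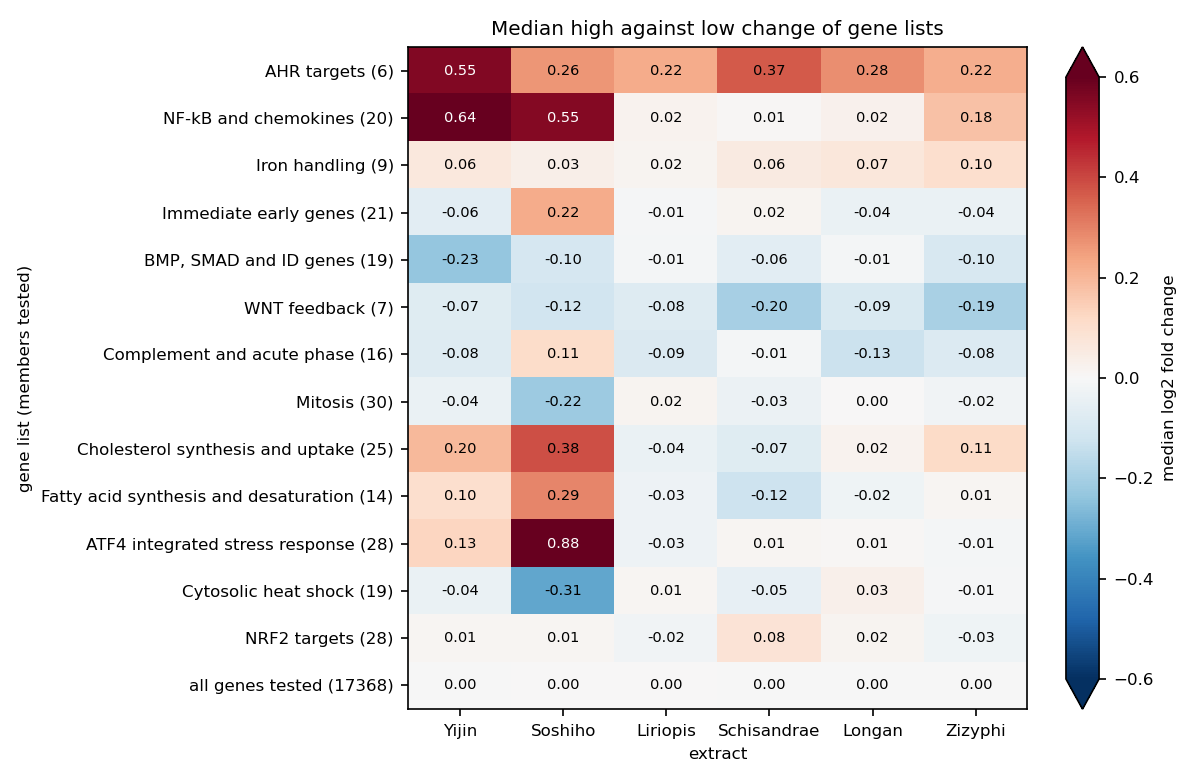
Median high against low log2 fold change of the tested members of 13 gene lists and of all genes tested (rows, with the number of members) in each extract (columns), with the value printed in each cell. The AHR row is positive in all 6 columns, and the ATF4 and heat shock rows stand out most in Soshiho-tang, with 0.13 for ATF4 in Yijin-tang.

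Some lists moved most in Soshiho-tang. Of 28 targets of ATF4, the transcription factor of the integrated stress response, 25 rose in Soshiho-tang with a median log2 fold change of 0.88, where 5.52% of all genes rose and 4.53% fell. Yijin-tang called 4 higher (median 0.13) and Schisandrae 3 (median 0.01), where they called 0.495% and 0.927% of all genes higher. The other extracts called 0. The common test called 2 (GDF15, a stress-induced cytokine, at 0.29, and XPOT, a tRNA exporter, at 0.09). The interaction was called for 25 of 28. Cytosolic heat shock genes fell in Soshiho-tang for 16 of 19 members (median -0.31) and were called in no other extract. Of 30 mitosis genes, 19 fell in Soshiho-tang, and 5 fell in the common test (AURKA -0.10, KIF20A -0.09, HMMR -0.09, CCNA2 -0.09 and NUSAP1 -0.07), with a median of -0.04. In the common test 1.55% of all genes fell. Without Soshiho-tang 1 of the 30 was called, and 0 without Yijin-tang or with the extract as the unit (limma). HMMR was called in Schisandrae (-0.19) and Zizyphi (-0.19) and not in Soshiho-tang (-0.14). The common calls of HMMR, CCNA2 and KIF20A were kept in 15, 17 and 25 of 33 fits that left out a library.

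The alike groups differed from all tested genes in type, level and length, which can bear on whether a gene is called. Of the 265 alike and higher genes 98.1% were protein coding, as were 88.1% of the 254 alike and lower genes with a known type, against 79.5% of all tested genes. Their median levels were 27.6 and 43.6 CPM, against 13.5 CPM over all tested genes, and their median exonic lengths were 5.34 and 4.83 kb, against 4.32 kb. The 39 opposite genes stood at a median of 133 CPM. The part of expression level in which genes were called was not tested.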

How the data were processed

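Strand-marking mRNA libraries were read as 100 bp pairs, per the labels' protocols. Per the submitters' processing notes, the tools were RSEM 1.3.3, STAR 2.7.3a, FastQC 0.11.9 and Trim Galore 0.6.5, on GRCh38 (hg38). No source used here gives the strand setting or annotation release, so antisense and overlapping genes are uncertain. The deposited table holds the authors' expected counts per gene for 60 libraries, not normalized. These were rounded to whole numbers. Of 60675 identifiers, 41209 had an official symbol and 57055 a position in GENCODE 29.

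Genes were filtered by extract and dose (filterByExpr), which left 17368, and scaled with TMM in edgeR 4.0.16 (R 4.3.3). The common effect was a quasi-likelihood test of dose with extract as a block over 33 libraries. The interaction and the single extracts came from a fit of 12 groups. Adjusted p-values are Benjamini-Hochberg values over all 17368 genes, and genes were called under 0.05. For single extracts the adjustment was made within each extract, so a missing call, as in Liriopis, does not mean that a gene did not change. CPM values use the same factors. Intervals and errors cover the spread between libraries. DESeq2 1.42.0 and limma 3.58.1 served as alternatives, and the scripts were tested on simulated data.

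Named genes were the 15 largest alike changes in each direction (at least 1 CPM, sign in at least 5 extracts), up to 15 genes called in at least 3 extracts, the 15 strongest opposite genes, and up to 4 called members of each list with at least 3. The members and lists were chosen with earlier results of these data known. Other genes named in the text were chosen after their values were seen. Of 45 gene lists, those with fewer than 3 called members are mostly not described. Longan low replicate 3 was left out for its different dependence on gene length. Some genes that meet these rules are not reported here.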

Additional observations from a re-analysis of the deposited data

Results flagged for a closer look

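The effect of the high dose differed between extracts for 1015 genes by the interaction of extract and dose (edgeR quasi-likelihood test, adjusted p under 0.05), and 44 of 76 named genes were among them. The adjusted p of the interaction was smallest among those reported here for SCD 1.341e-16, FADS2 4.436e-12, FADS1 5.336e-11, HMOX1 8.64e-10, SREBF1 9.538e-10, NR4A1 7.387e-09, CXCL1 1.64e-08, ID2 3.361e-08 and SQSTM1 3.747e-08. It was next for IL32 1.871e-06, SMOC1 2.558e-06, SQLE 6.721e-06, KRT4 1.193e-05, CXCL2 2.595e-05, CYP51A1 3.151e-05, MVK 4.946e-05, PTGS2 5.782e-05, RBFOX3 5.802e-05, AURKA 9.747e-05 and ID4 9.874e-05. Then followed TNFAIP2 0.0001298, SREBF2 0.0001747, MEG3 0.0004766, ID3 0.0006674, LINC00707 0.0006907, CCNA2 0.0007542, H19 0.0008378, NR4A3 0.001115, CYP1B1 0.001192, KIF20A 0.001305 and DIO2 0.002846. The rest were IGFBP5 0.0048, CCL2 0.005149, FTH1 0.005149, FGG 0.008105, VAT1 0.008293, TIPARP 0.01172, FGB 0.0207, TMC7 0.02177, POLE4 0.02429, FGA 0.03586 and HMMR 0.04702. In each case the difference between the extracts was itself tested. Sizes in single extracts are given with the results for some of these genes, and only the common change for others. AURKA, for example, changed by -0.39 in Soshiho-tang and 0.0036 in Liriopis, and CCNA2 by -0.38 and -0.016. Leaving out Soshiho-tang left 189 genes.

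Single libraries outside the comparison stood above every vehicle library for AHR targets. Within the comparison, not every high-dose library lay above vehicle for CYP1B1 and TIPARP. At 370 µg/mL Aucklandiae Radix, CYP1A1 read 6.374 CPM (highest vehicle 1.475), CYP1B1 149.5 CPM (95.84), TIPARP 88.87 CPM (39.71) and AHRR 8.163 CPM (5.804). At 380 µg/mL Polygalae Radix, CYP1B1 read 113.6 CPM, TIPARP 50.93 CPM and AHRR 6.273 CPM, and CYP1A1 was at 0.9267 CPM. These are 1 library each, of another set than the vehicle libraries, and were not tested.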

How the results depend on the processing

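The common test called 551 genes, and 548 to 685 were called with DESeq2 size factors, a minimum of 1 CPM, the DESeq2 Wald test, without Longan or within set 8. Of these, 546, 535, 521, 440 and 217, in that order, were among the 551. The count was 870 without a filter, 1245 for the mean of the 6 contrasts, 893 without Liriopis, 341 without Soshiho-tang, 295 without Schisandrae, 215 without Zizyphi, 192 without Yijin-tang, 63 within set 10, 12 within set 9, 9 with the extract as the unit (limma) and 64 with Longan low replicate 3. It ran from 410 to 707 when single libraries were left out. The interaction count of 1015 was 1917 without a filter, 189 without Soshiho-tang, 78 with Longan low replicate 3 and 630 to 1167 with single libraries left out. Without a filter the single extracts gave 325 (Yijin-tang), 112 (Liriopis), 542 (Schisandrae), 471 (Longan) and 445 (Zizyphi). At 1 CPM Longan gave 26. With Longan low replicate 3 the counts were 23 (Yijin-tang), 237 (Soshiho-tang), 2 (Schisandrae), 1305 (Longan) and 2 (Zizyphi). With single libraries left out they ran from 114 to 140 (Yijin-tang), 828 to 1147 (Soshiho-tang), 0 to 1 (Liriopis), 127 to 290 (Schisandrae), 0 to 74 (Longan) and 103 to 143 (Zizyphi). Every left-out Soshiho-tang and Zizyphi library moved its own count by over 1.5 times, as did Yijin-tang low 1 and high 3, replicates 1 and 2 of Schisandrae, and Longan high 1, 2 and 3 and low 2. Same-numbered libraries share only a number (correlations of deviations from -0.20 to 0.20 over 16 pairs, 7 above 0.1, 10 correlating best with their own number). With the replicate block 312 genes were called in common, 1099 for the interaction, 4 in Liriopis and 158 in Longan, and 55 of 77 named results were kept. The block gave 0 calls in the cholesterol list (4 without it), 5 in NF-kB (11), 1 in mitosis (5) and 2 lower in the BMP list (5). Reversed signs were found for CXCL1 (-0.081 within set 10), IL32 (-0.23), MVK (-0.012), CYP51A1 (-0.043), SQLE (-0.043) and SREBF2 (-0.0088) within set 9, and CD55 (0.0025) within set 8. The cause was not tested. Of 77 named results, 55 were kept without any 1 of 33 libraries and 22 were lost at least once. With an extract left out, 45 were kept without Yijin-tang, 50 without Zizyphi and 51 without Soshiho-tang. Another 59 were kept without Schisandrae, 70 without Longan and 73 without Liriopis. With Longan low replicate 3 added, 23 were kept. Of the 62 named common changes, 6 were kept with the extract as the unit (limma), 40 within set 8, 7 within set 9 and 13 within set 10. Depth limits genes near 1 CPM, such as CYP1A1 and CXCL1.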

Other observations

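A pair of further ethanol extracts, Polygalae Radix and Aucklandiae Radix, had 1 library per dose at lower doses (380 and 15.2 µg/mL, and 370 and 14.8 µg/mL), so their values have no replicate check. In Aucklandiae Radix, 72.6% of 259 alike and higher genes and 25.0% of 244 alike and lower genes were higher at the high dose, against 51.1% of 13833 genes with at least 1 CPM. In Polygalae Radix the shares were 44.0% and 38.9%, against 48.7%. NR4A1 read 118.6 CPM in Polygalae Radix high and 44.2 CPM in its low dose, but 17.98 and 47.8 CPM in Aucklandiae Radix. NR4A3 read 73.1 against 11.4 CPM in Polygalae Radix and 3.49 against 9.82 CPM in Aucklandiae Radix. FGB read 54.9 against 267.8 CPM in Polygalae Radix and 102.5 against 263.8 CPM in Aucklandiae Radix. HMOX1 read 521.5 against 157.5 CPM in Aucklandiae Radix and 130.0 against 143.6 CPM in Polygalae Radix. INSL4, a placental insulin-like hormone that fell in the common test (-0.27, adjusted p = 1.89e-06), read 9.26 against 26.2 CPM in Aucklandiae Radix and 14.2 against 23.0 CPM in Polygalae Radix.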
